A study of Mus musculus with 8 samples.

Results

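The RAS-MAPK core signalling genes were 52 mouse genes, taken by name, that code for the small GTPases of the RAS family, the proteins that load them with GTP or switch them off, the adaptors that link them to receptors, the kinase cascade and its scaffolds, the kinases next in line and the transcription factors of the immediate early response. For each gene, CpG cytosines from 1000 bp outside to 500 bp inside either end were gathered (mm10 coordinates, gene bounds of RefSeq), and methylated and unmethylated reads were summed per end and library. An end counted as measured if it held 3 or more positions and each library had 20 or more reads on it. Of 104 ends, 44 ends of 40 genes were measured, among 15583 measured ends of 14328 genes in the whole series.

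Methylation was read by reduced representation bisulfite sequencing (RRBS), which sequences CpG-rich fragments cut at CCGG after unmethylated cytosines have been converted. The 8 libraries came from progenitors sorted as cKit+ and Cd11b- from mice transplanted with I1DN leukaemic cells (a name the labels do not spell out) and treated for 5 days. There were 2 libraries each of Vehicle, of the mutant IDH1 inhibitor AG120 (ivosidenib), of the DNA methyltransferase inhibitor AZA (azacitidine) and of both drugs together, here called the combination. All groups were I1DN cells, and the labels do not say whether the libraries of a group came from separate mice, so p-values measure the spread between these libraries, which may be technical. Total CpG calls ranged from 90373925 to 130796962 per library, and were lower in each of the 4 libraries with AG120 than in each of the 4 without it. Of the genes that mark the labelled sort, Kit was measured and Itgam, which codes for Cd11b, had no measured end. The start of Kit had a mean level of 6.16% and ranged from 0.137% to 19.4%, both in Vehicle libraries. Methylation does not show whether a gene is expressed, so these values do not check the sort.

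RAS proteins are switches that are on when bound to GTP. Exchange factors such as Sos1 turn them on when a receptor recruits them through Grb2, and GTPase-activating proteins such as Nf1 turn them off. Active RAS engages RAF kinases, which phosphorylate MEK, which phosphorylates ERK, and ERK reaches kinases such as Rps6ka1 and transcription factors such as Fos and Myc. Mutations that keep this pathway on are frequent in myeloid leukaemia. Most genes of this kind have CpG-rich promoters, which are usually free of methylation in normal cells.

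The ends of these genes were almost all poorly methylated. In DNA from many cells, a level cannot tell a share of methylated cells from a share of methylated alleles. Over the 8 libraries the mean level was under 5% at 40 of the 44 ends (90.9%), against 59.8% of all measured ends. It was over 20% at 3 ends (6.82%), against 25.9% of all ends, and at 2 without AG120 replicate 1 or without combination replicate 1. The median end had a mean level of 1.33%, against 2.66% for all. At gene starts, 29 of 31 ends of the RAS-MAPK genes (93.5%) were under 5%, against 68.7% of 9845 starts of all genes. Leaving out any 1 library left 39 or 40 of the 44 ends under 5%.

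Low levels were found in every role of the pathway. The median of the mean levels was 1.18% for 4 ends of RAS family GTPases, 1.67% for 6 ends of adaptors and the phosphatase Ptpn11, 0.817% for 8 ends of the kinase cascade and its scaffolds and effectors, 1.57% for 6 ends of negative regulators, and 1.95% for 12 ends of transcription factors. Of the kinases downstream of ERK, Mknk2 had 1.33% and Rps6ka1 0.953%. The exchange factors had a median of 4.89% over 6 ends and a range from 1.08% to 37.3%. That median rested on 1 library, since without AG120 replicate 2 it was 1.43%, below the 1.76% of the negative regulators. The lowest mean levels were 0.173% at the starts of Rras, a GTPase related to the RAS proteins, and of Fos, an immediate early transcription factor. Both of these starts had 0 methylated reads in at least 3 libraries.

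**Figure D1:**
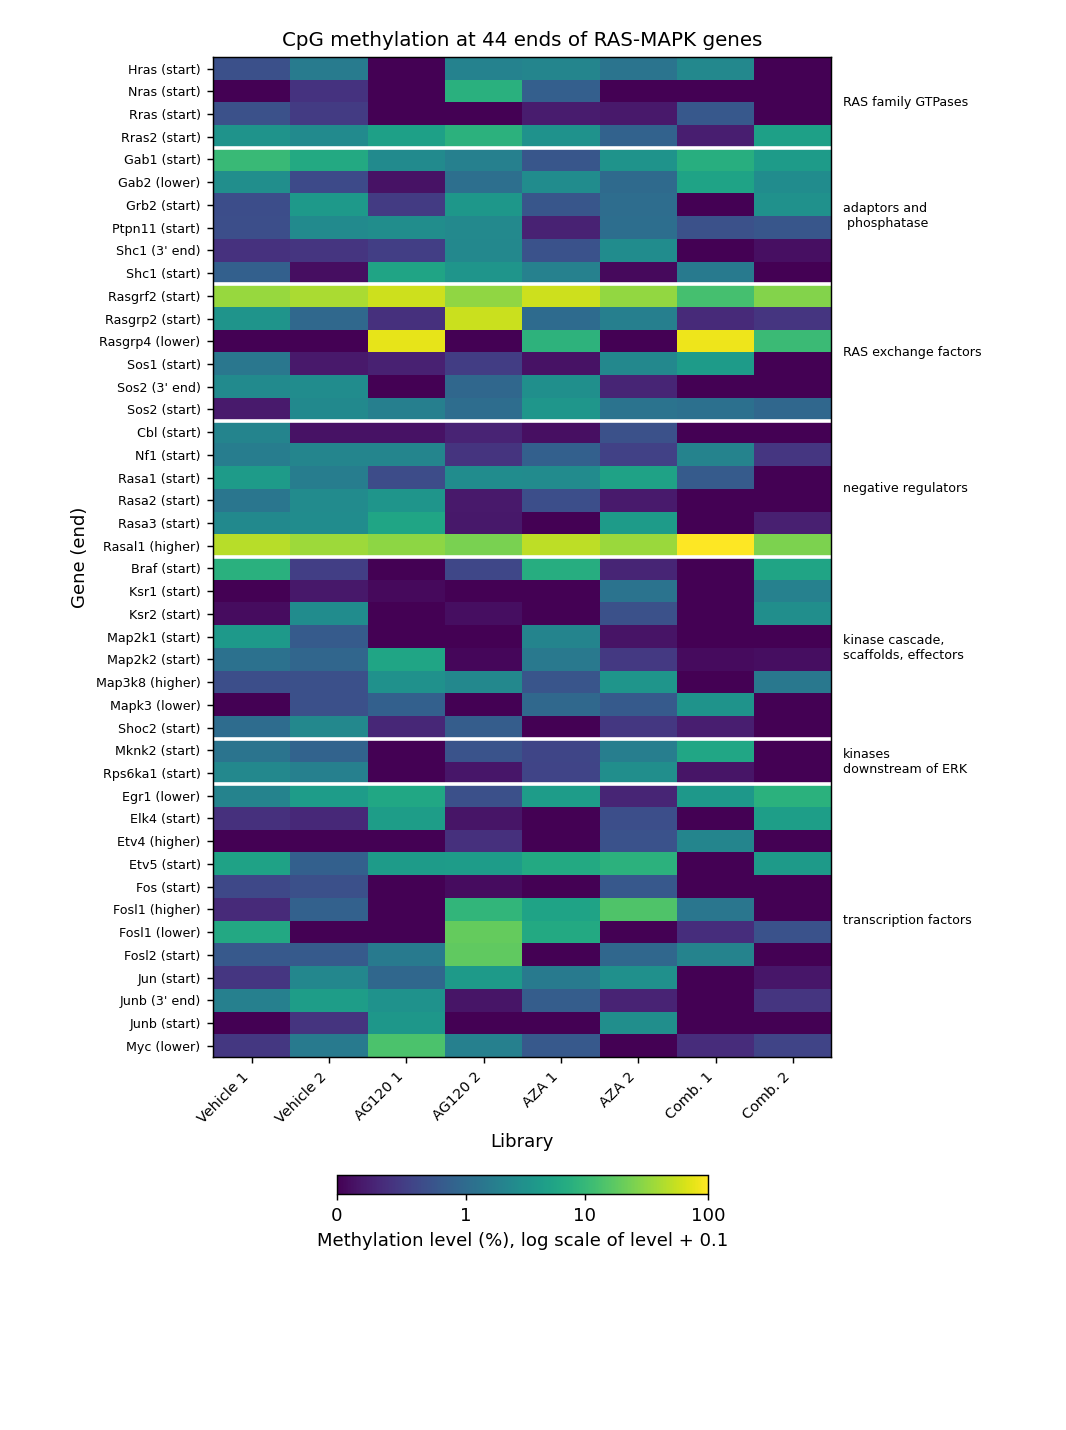
CpG methylation level (colour, logarithmic scale of the level in % plus 0.1) of the 44 measured ends of RAS-MAPK genes (vertical axis, grouped by role) in the 8 libraries (horizontal axis). Rasgrf2 and Rasal1 are high in every library, Rasgrp4 is high in the first AG120 and the first combination library, and most other cells of the map are under 5%.

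Within 500 bp of the gene end, where the promoter lies at a start, the share of ends under 5% was higher, for these genes and for all genes. The ends measured in this inner part were fewer, and Rasal1, Rasgrp4 and the 3′ end of Sos2 were not among them, so the sets differ. In the inner part 41 ends of RAS-MAPK genes were measured and 40 (97.6%) had a mean level under 5%, against 64.9% of 14104 ends of all genes. The exception was Rasgrf2. In the part of the window 500 to 1000 bp outside the gene, 8 ends were measured in all libraries, and 6 (75%) were under 5%, against 53.4% of 2900 ends of all genes. The other 2 of them were Rasal1 at 43.7% and Etv5, a target and effector of ERK signalling, at 21.4%. Etv5 within 500 bp of its start had a mean of 1.74%. This split of the window was chosen after seeing the data.

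**Figure D2:**
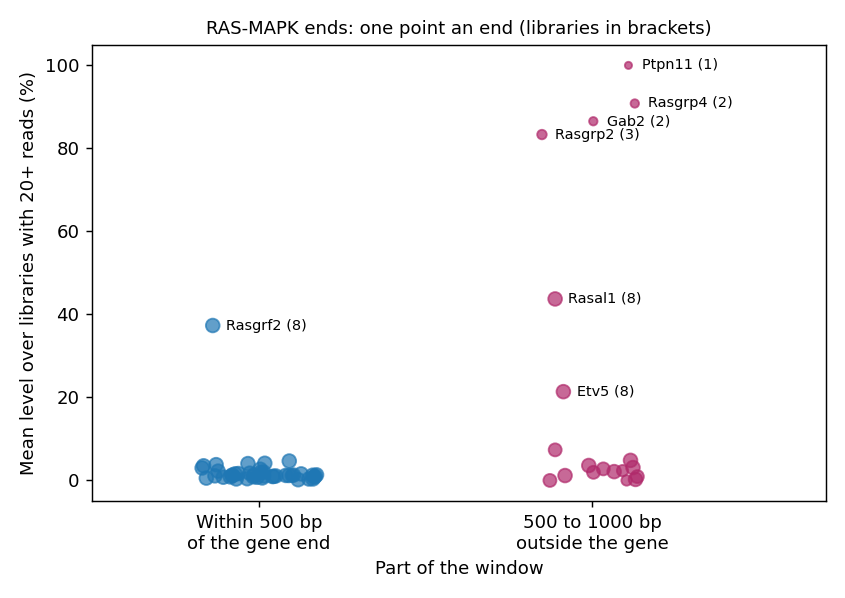
Mean methylation level (vertical axis, %) of each RAS-MAPK gene end in the inner and the outer part of its window (horizontal axis), over the libraries with at least 20 reads there, with their number in brackets and by point size. In the inner part Rasgrf2 is the one point over 20%, and the high points of the outer part rest on 1 to 8 libraries.

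Rasgrf2 codes for an exchange factor that answers to calcium and acts on RAS and RAC proteins. Its start (window chr13:92131328-92132828, 113 positions) was the one RAS-MAPK end with over 5% in every library and reads at the gene itself. The levels were 34.2% and 41.9% in Vehicle, 58.3% and 32.0% in AG120, 58.5% and 32.9% in AZA, and 13.0% and 27.7% in the combination. Both combination libraries lay below the other 6, and the single-drug groups spanned the Vehicle values. Group means were 38.1% ± 5.45, 45.2% ± 18.6, 45.7% ± 18.1 and 20.3% ± 10.4 (SD, n = 2). The combination differed from Vehicle by -17.7 percentage points, and edgeR's quasi-likelihood test gave an adjusted p = 1 (Benjamini-Hochberg over the 15507 ends tested). The difference was therefore not separable from the spread between libraries.

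The Rasgrf2 window shared 0 positions that were read in all 8 libraries. In the 100 bp outside the start the levels were 34.5% and 47.0% in Vehicle, 43.0% and 34.3% in AG120, 61.1% and 22.8% in AZA, and 0% (limit 0.326%, which is 3 counts of 919 reads) and 28.8% in the combination. From 100 to under 250 bp inside the gene they were 34.7% and 40.0%, 60.1% and 32.3%, 49.6% and 34.4%, and 17.2% and 5.26%. The order of groups was not the same along the window. In the first 100 bp of the gene combination replicate 1 was at 60% of 30 reads, above both Vehicle libraries (40.3% and 30%), and combination replicate 2 had 0 reads. From 250 bp inwards combination replicate 1 was at 27.1%, between the Vehicle libraries at 28.9% and 25.4%, and combination replicate 2 at 9.52% of 21 reads. Single positions lay at all levels from 0 to 100%. Of 37 positions with at least 10 reads in Vehicle replicate 1, 23 were under 20%, 7 were over 80% and 7 lay between. Of 47 in Vehicle replicate 2 the numbers were 23, 12 and 12. Of 31 such positions in AZA replicate 1, 9 were under 20%, 13 over 80% and 9 between. In AZA replicate 2, 21 of 39 were under 20% and 11 over 80%. In AG120 replicate 1, 12 of 39 were under 20% and 16 over 80%, and in AG120 replicate 2, 36 of 50 and 11. In combination replicate 1, 19 of 23 were under 20% and 3 over 80%, and in combination replicate 2, 11 of 15 and 1.

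**Figure D3:**
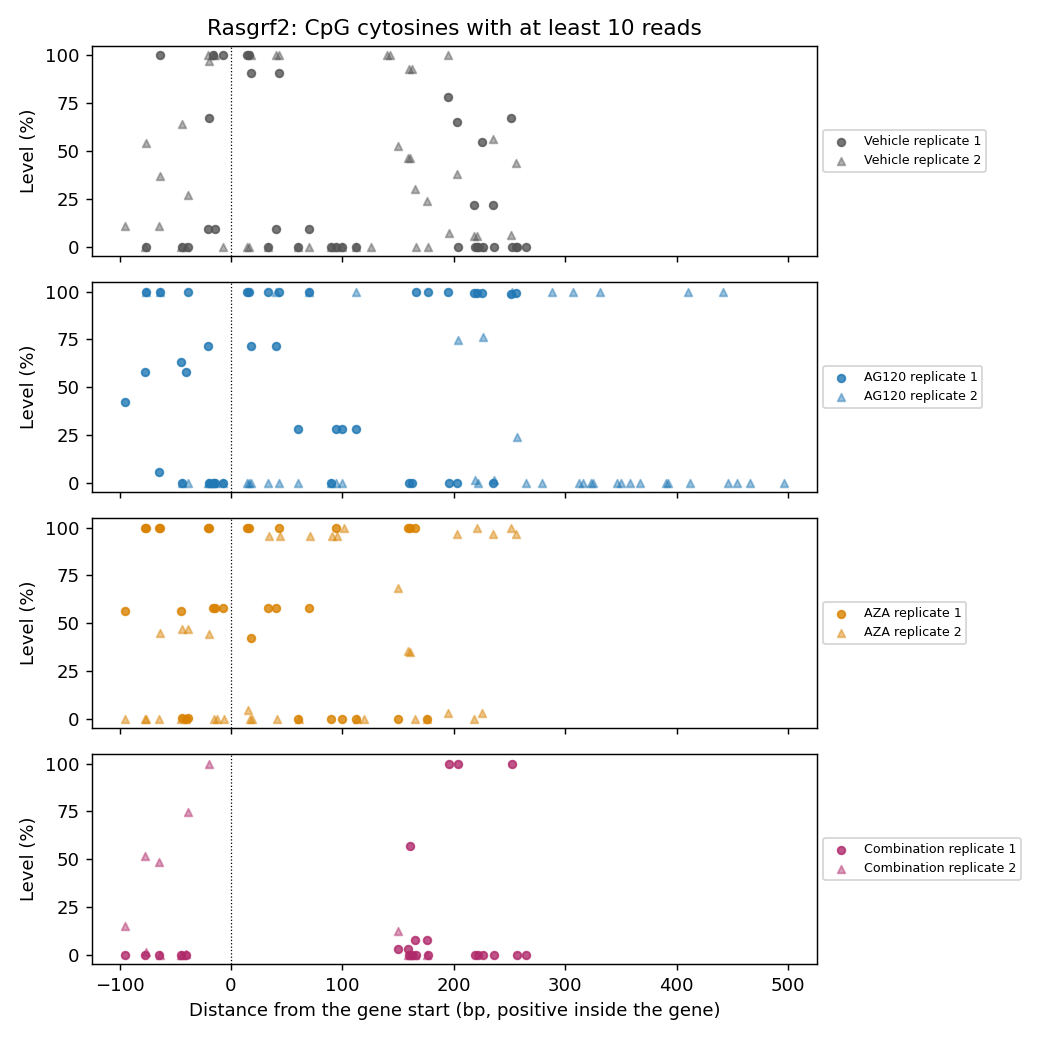
Methylation level (vertical axis, %) of single CpG cytosines with at least 10 reads at the start of Rasgrf2, by distance from the gene start (horizontal axis, bp, positive inside the gene), with 1 panel per group and 1 symbol per replicate. Many positions sit at 0 or 100%, and the libraries do not read the same positions.

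The RefSeq promoters (GRCm38.p6, 250 bases before to 50 after the start, 5′ to 3′ on the gene's strand) of the RAS-MAPK starts with the 2 highest mean levels and the 2 smallest p for the combination versus Vehicle are shown, because these starts were picked for their level or their p. The Rasgrp2 sequence, which is that of a start further inside the gene, lies wholly outside the window measured for Rasgrp2 and does not carry the level that picked it. Capitals mark the CG dinucleotides with a read in at least 1 library, and CG in lower case was not read.
Rasgrf2 (chr13:92131779-92132078, minus strand): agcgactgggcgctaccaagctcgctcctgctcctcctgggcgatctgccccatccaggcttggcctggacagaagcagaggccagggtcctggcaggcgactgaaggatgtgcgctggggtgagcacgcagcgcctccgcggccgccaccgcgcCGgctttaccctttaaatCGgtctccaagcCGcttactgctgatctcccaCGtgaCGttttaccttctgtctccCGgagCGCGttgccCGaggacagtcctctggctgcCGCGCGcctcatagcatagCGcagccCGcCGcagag
Rasgrp2 (chr19:6399625-6399924, plus strand): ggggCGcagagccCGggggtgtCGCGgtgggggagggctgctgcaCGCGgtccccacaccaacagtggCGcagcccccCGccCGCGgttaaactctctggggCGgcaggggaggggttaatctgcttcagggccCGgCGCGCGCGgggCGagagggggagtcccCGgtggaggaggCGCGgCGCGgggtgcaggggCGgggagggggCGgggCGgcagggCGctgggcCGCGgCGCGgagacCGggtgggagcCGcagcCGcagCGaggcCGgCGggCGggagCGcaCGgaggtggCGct
Rasa2 (chr9:96631454-96631753, minus strand): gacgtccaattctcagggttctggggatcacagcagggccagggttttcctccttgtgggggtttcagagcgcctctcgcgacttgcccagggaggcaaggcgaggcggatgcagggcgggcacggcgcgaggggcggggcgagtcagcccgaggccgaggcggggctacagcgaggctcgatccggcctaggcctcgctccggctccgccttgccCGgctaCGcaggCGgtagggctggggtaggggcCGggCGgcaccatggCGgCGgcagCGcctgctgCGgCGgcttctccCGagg
Rps6ka1 (chr4:133887748-133888047, minus strand): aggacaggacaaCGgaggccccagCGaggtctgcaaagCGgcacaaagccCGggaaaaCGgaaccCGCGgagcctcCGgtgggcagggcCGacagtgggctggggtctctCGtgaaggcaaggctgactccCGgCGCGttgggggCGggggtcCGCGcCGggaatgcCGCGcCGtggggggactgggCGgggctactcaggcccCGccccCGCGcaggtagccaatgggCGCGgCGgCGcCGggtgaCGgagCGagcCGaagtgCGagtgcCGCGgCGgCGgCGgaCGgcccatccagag
The Rasgrf2 promoter holds 28 CG and 2 CCGG, the Rasgrp2 promoter 40 and 5, the Rasa2 promoter 32 and 4, and the Rps6ka1 promoter 39 and 5. Reads fell on 15, 40, 11 and 39 of these CG. The methylation of the printed 300 bases differed widely among the genes. For Rasgrf2 it was 37.8% and 47.1% in Vehicle, 52.1% and 31.2% in AG120, 63.0% and 24.0% in AZA, and 1.28% and 28.8% in the combination. For Rasgrp2 it was at most 1.42% in any library. For Rasa2 it was 4.18% and 3.11% in Vehicle and 0.0883% in AZA replicate 1, and AG120 replicate 2 had no reads there. It was 0% of 65 reads in AG120 replicate 1, of 208 in AZA replicate 2 and of 330 and 366 in the combination. At so few reads the limits of these zeros lie above 0.0883%. Over its whole window Rasa2 was at 3.55% in AG120 replicate 1. For Rps6ka1 it was 1.35% and 1.76% in Vehicle, 0.713% in AZA replicate 1 and 0% in the other 5 libraries.

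Of the 52 genes, 42 had a promoter in the RefSeq table. CCGG, the cut site of RRBS (a palindrome, so the same on both strands), was in 30 of the 31 promoters of genes measured at the start (96.8%) and in 9 of the 11 of genes not measured there. Of these 31 promoters 29 lay in the measured window, and those of Rasgrp2 and Grb2 lay outside it. CCGG was in 88.4% of the 9845 promoters of all genes measured at the start and in 53.0% of all 26794. The median number of CG was 30 in the promoters of measured RAS-MAPK starts and 22 in those of all measured starts. These are counts of letters and say nothing of binding.

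The other 2 high ends, Rasal1 and Rasgrp4, had most or all of their highly methylated reads outside the gene. Rasal1, a GTPase-activating protein, was measured at its higher-coordinate end (chr5:120679097-120680597, strand not given in the table used), and its reads lay 500 to 1000 bp outside the gene, in a window shared with Dtx1. Levels were 46.9% and 36.0% in Vehicle, 31.0% and 24.9% in AG120, 50% and 35.4% in AZA, and 100% and 25.6% in the combination. The 100% came from 58 reads of 1 position. AG120 lay below Vehicle without overlap, with a difference of -13.5 percentage points (edgeR, adjusted p = 1). Without the combination library at 100% the mean of Rasal1 was 35.7%, against 43.7% with it.

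Rasgrp4, an exchange factor of myeloid and mast cells, was measured at its lower-coordinate end (chr7:29133607-29135107, 22 positions, strand not given). Levels were 0% and 0% in Vehicle (a limit of 0.371% from 3 counts of the summed reads), 77.98% and 0% in AG120, 8.68% and 0% in AZA, and 83.3% and 11.1% in the combination. Within 500 bp of the end it was 0% in 6 of the 7 libraries with reads there, and 8.35% in AZA replicate 1, where 1 position 369 bp inside the gene held 94.9% of the methylated reads of the window. Further out, 353 reads of AG120 replicate 1 were 98.3% methylated and 144 reads of combination replicate 1 were 83.3% methylated, while both Vehicle libraries had 0 reads there. The 2 libraries with high levels at Rasgrp4 were thus those with over 100 reads of the outer stretch. Its mean over the libraries was 22.6%, and 13.97% without combination replicate 1. The combination against Vehicle had an adjusted p = 0.986 (edgeR).

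Other ends also had 1 high library. Rasgrp2, which activates RAP proteins in platelets and leucocytes, stood at 57.8% in AG120 replicate 2 and at most 3.47% in the other 7 libraries. In that library 208 reads of the outer stretch were 100% methylated, and the stretch within 500 bp of the start was at 1.91%. Of the other libraries, AZA replicates 1 and 2 had 24 and 44 outer reads, 100% and 50% methylated, and the rest had at most 3. Myc, the growth-promoting transcription factor, stood at 14.1% in AG120 replicate 1 and at most 1.95% elsewhere, with 48.6% in the outer stretch and 1.38% within 500 bp. The outer stretch of Myc was at most 1.30% in the 6 other libraries with at least 20 reads there. The high libraries of Fosl1, Fosl2 and Nras were of another kind, since their reads lay within 500 bp. Fosl1 and Fosl2 are AP-1 subunits, and their highest levels were 19.5% (lower-coordinate end) and 18.2%, both in AG120 replicate 2. Nras, a RAS GTPase, was at 7.89% in that library, with 95 methylated reads, and at most 0.703% in the other 7.

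Methylated reads came from few positions. Over the 44 ends and 8 libraries, 274 of 352 values rested on at least 1 methylated read. In 244 of these 274 (89.1%), at most 3 positions held 90% of the methylated reads, and in 136 a single position did. The median share of positions at exactly 0% or 100% was 98.0%. PCR reads without molecular identifiers are not independent molecules, so read counts overstate precision and limits from 3 counts cover counting error only.

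The combination libraries held the most ends without a methylated read. Such ends numbered 6 and 3 of 44 in Vehicle, 13 and 6 in AG120, 9 and 4 in AZA, and 18 and 19 in the combination. As shares these were 13.6% and 6.82%, 29.5% and 13.6%, 20.5% and 9.09%, and 40.9% and 43.2%. Both combination libraries lay above the other 6. Among all measured ends the shares were 11.2% and 9.81%, 22.4% and 20.9%, 15.9% and 13.7%, and 29.6% and 27.98%, in the same order of groups. Over the whole table the methylated share of CpG calls was not lower in libraries with more such ends. It was 34.1% and 32.6% in Vehicle, 41.5% and 49.9% in AG120, 39.2% and 36.9% in AZA, and 50.5% and 48.03% in the combination. Each of the 4 libraries with AG120 thus had a higher share than each of the 4 without it. An exact permutation test of 2 libraries against 2 cannot give a two-sided p below 0.333, so no test was made on these counts.

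Depth moved only in part with these counts. The median number of reads per RAS-MAPK end was 4365 and 5686.5 in Vehicle, 3269.5 and 2347 in AG120, 4075 and 4076.5 in AZA, and 2101.5 and 2393.5 in the combination. AG120 replicate 2 thus lay between the combination libraries in reads, with 6 ends without a methylated read against their 18 and 19. The median number of positions read was 66.5 and 70.5, 52.5 and 54, 59 and 62, and 36.5 and 42.5. With each end thinned at random to the reads of its lowest library, the ends without a methylated read were 10 and 6, 16 and 9, 12 and 9, and 19 and 22. The combination libraries stayed highest after thinning, which equalises reads and not the positions read. Of 290 positions with a methylated read in a Vehicle library, 62.4% and 70.3% were read in the AG120 libraries, 71.4% and 77.2% in the AZA libraries, and 51.0% and 48.3% in the combination libraries. Of all 4139 positions read in Vehicle the shares were 48.9% and 52.1%, 59.8% and 62.9%, and 37.4% and 42.0%. The part of depth and of missing positions in the counts was not tested beyond thinning.

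**Figure D4:**
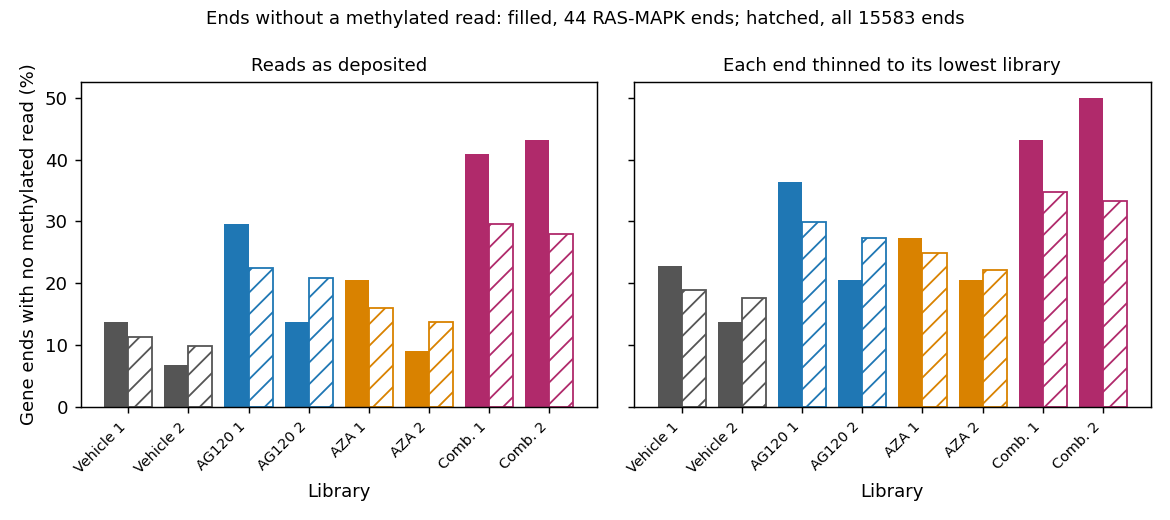
Share of gene ends without a methylated read (vertical axis, %) in each library (horizontal axis), for 44 ends of RAS-MAPK genes (filled bars) and all 15583 ends (hatched bars), from the reads as deposited (left) and after thinning each end to its lowest library (right). The combination bars are the tallest of the filled bars in both panels, at 40.9% and 43.2% on the left.

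No RAS-MAPK end passed edgeR's quasi-likelihood test at a false discovery rate of 0.05 in any comparison. The share of all 15507 ends called was 0% as well in AG120 against Vehicle, AZA against Vehicle, the combination against each of the other 3 groups, the average effect of each drug (4 libraries with it against 4 without) and the interaction of the drugs. At an unadjusted p under 0.05 there were 1, 0 and 3 of the 44 RAS-MAPK ends for AG120, AZA and the combination against Vehicle. Among all 15507 ends there were 490 (3.16%), 355 (2.29%) and 772 (4.98%). There were 1 and 1 RAS-MAPK ends for the combination against AZA and against AG120, and 702 (4.53%) and 683 (4.40%) among all ends. For the average effects there were 2 for AG120 and 1 for AZA, and 717 (4.62%) and 526 (3.39%) among all ends. For the interaction there were 0, and 407 (2.62%) among all ends. DESeq2 was fitted to the same 15507 ends, and its counts are given of the ends to which it gave an adjusted p. It called 12 of 5586 ends of all genes in AG120 against Vehicle and 2 of 15507 in AZA against Vehicle. For the combination it called 144 of 15507 against Vehicle, 146 of 14905 against AZA and 254 of 15206 against AG120. For the average effects it called 363 of 14905 (AG120) and 195 of 15507 (AZA), and for the interaction 97 of 15206. Of the 44 RAS-MAPK ends it called 1, Rps6ka1, for the average effect of AG120, where it called 363 of 14905 ends of all genes. limma called 1 end, in the combination against AZA, and 0 elsewhere.

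Against Vehicle, the combination had a lower mean at 28 of 44 ends and a higher mean at 16. The median difference was -0.44 percentage points, against -0.19 over all ends. Means were lower at 63.6% of RAS-MAPK ends and at 54.8% of all ends. At 15 ends both combination libraries lay below both Vehicle libraries, and at 1 end, Rasgrp4, above. Of all ends, 25.3% lay below and 11.5% above without overlap. The median depended on single Vehicle libraries, since it was -0.18 without Vehicle replicate 1 and -0.08 without Vehicle replicate 2. Leaving out 1 of the 4 libraries at a time gave 22 to 32 lower ends.

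The 3 smallest p for the combination versus Vehicle belonged to Rasa2, Rps6ka1 and the 3′ end of Sos2, each under 0.05 before adjustment and each with adjusted p = 0.984 (edgeR). Rasa2 codes for a GTPase-activating protein. Its start (chr9:96631112-96632612) had 1.42% and 2.69% in Vehicle, 3.55% and 0.0591% in AG120, 0.427% and 0.0658% in AZA, and 0% in both combination libraries (limit 0.0724%). In observed levels the combination lay below each of the other groups without overlap, while 1 AG120 library was the highest of all 8. The combination limit was above the levels of AG120 replicate 2 (1 methylated read) and AZA replicate 2 (3 methylated reads). The combination zeros therefore cannot be placed below those libraries. For the average effect of AZA (edgeR, adjusted p = 1), levels were 0.123% ± 0.205 with AZA and 1.93% ± 1.52 without it (SD, n = 4), and the ranges overlapped. Of 8 positions with a methylated read in Vehicle, the combination libraries read 4 and 2, and AG120 replicate 2 read 3.

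Rps6ka1 codes for the kinase RSK1, which ERK activates. Its start (chr4:133887297-133888797, 170 positions) had 2.39% and 1.91% in Vehicle, 0% and 0.0526% in AG120, 0.318% and 2.90% in AZA, and 0.0469% and 0% in the combination. All 4 libraries with AG120 lay below all 4 without it. The means were 0.0249% ± 0.0288 with AG120 and 1.88% ± 1.12 without (SD, n = 4). The difference was -1.86 percentage points (edgeR, adjusted p = 1). DESeq2 gave an adjusted p of 0.0232 for the same contrast, and limma 0.827, so the call depended on the tool. Over the alternatives other than DESeq2 the adjusted p lay between 0.827 and 1. AG120 against Vehicle differed by -2.12 points (edgeR, adjusted p = 1). Of 8 positions with a methylated read in Vehicle, the AG120 libraries read 3 and 3 and the combination libraries 4 and 4. The methylated reads in Vehicle numbered 293 of 12258 and 132 of 6912, and 3 positions held 90% of them in each library.

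Map2k1 codes for the kinase MEK1. It was the other end at which, in observed levels, the 4 libraries with AG120 lay below the 4 without. Its start (chr9:64253105-64254605) had 3.98% and 0.631% in Vehicle, 0% in both AG120 libraries (limit 0.130%), 2.18% and 0.0448% in AZA, and 0% in both combination libraries (limit 0.145%). The average effect of AG120 was -1.71 points (edgeR, adjusted p = 1), and AG120 against Vehicle -2.31 points (edgeR, adjusted p = 1). Vehicle replicate 1 and AZA replicate 1 carried most of the methylated level. The 0.0448% of AZA replicate 2 was 1 methylated read of 2234. It lay below the limits of the zeros, so the zeros cannot be placed below that library. Of 5 positions with a methylated read in Vehicle, the AG120 libraries read 3 and 5 and the combination libraries 2 and 1. Depth was least in 2 of the zeros, with 499 reads in AG120 replicate 1 and 543 in combination replicate 1. Over all ends, 3.19% lay lower and 1.13% higher without overlap for the average effect of AG120, while 2 of the 44 RAS-MAPK ends lay lower and 0 higher.

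Sos2 codes for an exchange factor recruited by Grb2. Its 3′ end (chr12:69582761-69584261) also lies in the window of Vcpkmt, so the reads belong to both genes. Levels there were 2.60% and 2.78% in Vehicle, 0% and 0.914% in AG120, 2.999% and 0.104% in AZA, and 0% in both combination libraries (limit 0.0606%). The combination differed from Vehicle by -2.69 points, and the AZA libraries spanned almost the whole range. The average effect of AG120 there had an adjusted p = 1 (edgeR). At the start of Sos2 (chr12:69681352-69682852) the levels were 0.0661% and 2.58%, 1.85% and 1.09%, 3.63% and 1.30%, and 1.18% and 0.906%, and the combination overlapped Vehicle.

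**Figure D5:**
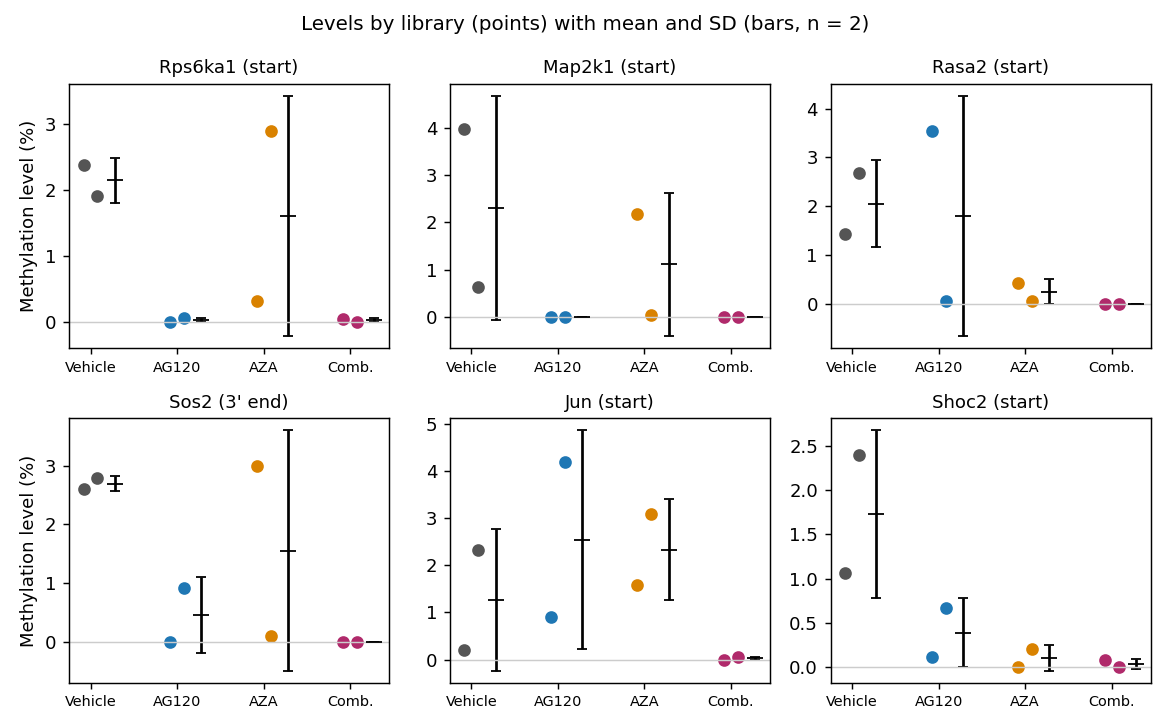
Methylation level (vertical axis, %) in each library (points) by group (horizontal axis), with the mean and SD (bars, n = 2), at 6 ends of RAS-MAPK genes. At Rps6ka1 and Map2k1 the AG120 and combination points lie below the Vehicle and AZA points. At Map2k1 the AZA replicate 2 point is 1 methylated read, under the limits of the zeros. The Vehicle or AZA replicates differ by up to several percentage points.

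AG120 against Vehicle gave 22 ends with a higher and 22 with a lower mean, and a median difference of 0.03 points, against -0.07 over all ends. The sign of that median turned to -0.23 without AG120 replicate 1. Groups did not overlap at 6 ends that were higher and 9 that were lower, and the shares of all ends were 12.5% and 20.1%. The higher ends were both ends of the adaptor gene Shc1, Fosl2, Rras2, Myc and Map3k8. The lower ends were Rps6ka1, Map2k1, Rras, Gab1, Mknk2, Shoc2, Fos, Rasal1 and the 3′ end of Sos2. Rras (chr7:45016942-45018442) had 0.452% and 0.234% in Vehicle, 0% in both AG120 libraries (limit 0.05%), 0.0700% and 0.0610% in AZA, and 0.563% and 0% in the combination. Its difference of -0.34 points had an adjusted p = 1 (edgeR), and the combination did not share it.

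AZA against Vehicle also gave 22 higher and 22 lower means. The median difference was -0.05 points, against -0.15 over all ends, and it was 0.13 without Vehicle replicate 1. Groups did not overlap at 5 ends that were higher and 6 that were lower, where the shares of all ends were 12.6% and 19.6%. Shoc2, a scaffold that helps to activate RAF kinases, had the smallest p (edgeR, adjusted p = 1). Its start (chr19:53943232-53944732) had 1.06% and 2.40% in Vehicle, 0.114% and 0.665% in AG120, 0% and 0.203% in AZA, and 0.0792% and 0% in the combination. Both Vehicle libraries were above the other 6 at Shoc2. The AZA average effect there was -0.99 points (edgeR, adjusted p = 1).

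Gab1, a docking protein that brings Ptpn11 to receptors, had the highest mean Vehicle level of the RAS-MAPK starts with an overall mean under 5%. Its start (chr8:80880019-80881519) had 10.7% and 6.57% in Vehicle, 2.63% and 1.92% in AG120, 0.538% and 3.36% in AZA, and 7.40% and 4.29% in the combination. Each drug alone lay below Vehicle without overlap and the combination lay above both single drugs. AZA differed from Vehicle by -6.67 points (edgeR, adjusted p = 1). The related Gab2 (lower-coordinate end, chr7:97080751-97082251) had 2.95% and 0.370%, 0.0400% and 1.15%, 2.81% and 0.982%, and 5.45% and 2.75%. The combination lay 3.51 points above AG120 there (edgeR, adjusted p = 1).

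Ptpn11, the phosphatase SHP2 that promotes RAS activation, had 0.430% and 2.64% in Vehicle, 2.85% and 2.47% in AG120, 0.0960% and 1.10% in AZA, and 0.451% and 0.539% in the combination at its start (chr5:121190897-121192397). Levels were 0.546% ± 0.415 with AZA and 2.10% ± 1.12 without it (SD, n = 4), and Vehicle replicate 1 overlapped the AZA libraries. The average effect of AZA had an adjusted p = 1 (edgeR). No RAS-MAPK end had groups apart for the average effect of AZA in either direction, where 1.85% of all ends were lower and 0.783% higher.

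The combination against AZA gave 27 lower and 17 higher means, with a median of -0.24 points against -0.02 over all ends. At 14 ends the combination lay below AZA and at 2, Rasgrp4 and Gab1, above, where the shares of all ends were 20.2% and 12.8%. The median came to -0.06 without AZA replicate 1, to -0.02 without AZA replicate 2, and to -0.49 without combination replicate 1. The combination against AG120 gave 28 lower and 15 higher means, with 1 tie and a median of -0.44 points against -0.02. Here 12 ends lay below and 2, Gab1 and Gab2, above, where the shares of all ends were 17.1% and 12.2%. That median lay between -1.02 without combination replicate 1 and -0.02 without AG120 replicate 2, and it was -0.03 without AG120 replicate 1 and -0.71 without combination replicate 2. These comparisons share the combination libraries, so their counts are not separate evidence.

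Jun, an AP-1 subunit, had the smallest p in both of these comparisons (both under 0.05 before adjustment, edgeR adjusted p = 1 in each). Its start (chr4:95051722-95053222), in a window shared with Junos, had 0.202% and 2.33% in Vehicle, 0.900% and 4.18% in AG120, 1.57% and 3.08% in AZA, and 0% and 0.0526% in the combination. The combination lay below all 6 other libraries. In each of those 6 libraries at most 2 positions held 90% of the methylated reads. Jun also had the smallest p of the RAS-MAPK ends for the interaction (edgeR, adjusted p = 1).

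Genes measured at both ends showed how far 2 windows of 1 gene can differ. At the start of Shc1, an adaptor that links receptors to Grb2, levels were 0.721% and 0.0309% in Vehicle, 5.49% and 3.57% in AG120, 1.97% and 0.0204% in AZA, and 1.61% and 0% in the combination. At its 3′ end they were 0.167% and 0.189%, 0.262% and 2.43%, 0.476% and 2.81%, and 0% and 0.0319%, and the combination differed from AZA by -1.62 points (edgeR, adjusted p = 1). The 0% of combination replicate 1 there rested on 49 reads at 14 positions, 0 of them with 10 reads. Of 8 positions with a methylated read in Vehicle, that library read 0, so its 0% does not show a low level. The AG120 libraries were above Vehicle at both ends of Shc1, whose windows are shared with Cks1b and Pygo2. At the start of Junb, an AP-1 subunit, levels were 0% and 0.180%, 3.75% and 0%, 0% and 2.94%, and 0% and 0% in the same order of groups. At its 3′ end they were 1.92% and 4.52%, 3.24% and 0.0494%, 0.669% and 0.101%, and 0% and 0.186%. At the start of Junb the replicates of each single drug differed more than the groups did. At its 3′ end the AZA and the combination libraries lay below both Vehicle libraries, by -2.83 and -3.13 points on average (edgeR, adjusted p = 1 and adjusted p = 0.986).

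At the lower-coordinate end of Fosl1 levels were 6.44% and 0% in Vehicle, 0% and 19.5% in AG120, 6.55% and 0% in AZA, and 0.150% and 0.474% in the combination. At the higher-coordinate end they were 0.125% and 0.761%, 0% and 9.34%, 5.40% and 14.9%, and 1.41% and 0%. At the lower-coordinate end both combination libraries read 0 of the 36 positions read in Vehicle. In Vehicle replicate 1 and in AG120 replicate 2, 1 position held 100% of the methylated reads of that end. AZA lay 9.68 points above Vehicle at the higher-coordinate end, the largest positive difference of any RAS-MAPK end in that comparison (edgeR, adjusted p = 1). Within AG120 and within AZA the replicates of Fosl1 were far apart at both ends.

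The remaining measured genes were under 10% in every library. Among the GTPases, Hras ranged from 0% to 2.39% over the 8 libraries and Rras2 from 0.0764% to 8.26%. In the cascade, Map2k2 (the kinase MEK2) ranged from 0.0129% to 5.66%, Braf from 0% to 7.99%, Mapk3 (the kinase ERK1) from 0% to 3.40%, Map3k8 from 0% to 3.54%, and the scaffolds Ksr1 and Ksr2 from 0% to 2.004% and 2.91%. Grb2 reached 4% and Sos1 4.34%. The negative regulators Nf1, Rasa1, Rasa3 and Cbl reached 2.24%, 5.29%, 5.71% and 2.15%. Mknk2, a kinase that ERK activates, reached 5.91%. Among the transcription factors the highest library value was 8.17% for Egr1, 8.32% for Etv5, 4.69% for Elk4, 2.25% for Etv4 and 0.571% for Fos.

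Not measured at either end were 12 genes. They were the GTPase Mras, the exchange factor Rasgrp1, the kinases Araf and Map3k1, the effector Rin1, the downstream kinases Mknk1 and Rps6ka2, the negative regulators Cblb and Lztr1, and the transcription factors Egr2, Egr3 and Elk1. The start of Cblb came nearest, with 73 positions and 3 reads in its lowest library.

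A list of 60 other genes of the pathway, among them growth factor receptors, RAP and RAL regulators and further targets, had 46 measured ends of 41 genes. Of these ends 31 had a mean under 5% and 9 a mean over 20%. In each comparison 0 of the 46 passed edgeR's test, with 0 at an unadjusted p under 0.05 in the combination against Vehicle and at most 2 elsewhere. Against Vehicle, the combination was lower at 24 and higher at 22 of these ends, with a median of -0.30 points. The 3 smallest p there belonged to Fosb, Map3k2 and Frs2 (edgeR, adjusted p from 0.986 to 0.998). Fosb, an AP-1 subunit like Jun, had 0% in both combination libraries (limit 0.133%) and 1.05% and 4.71% in Vehicle. Map3k2, a MEK kinase, differed the other way, with 0.242% and 4.93% in the combination and 0% and 0.00948% in Vehicle. Frs2, a docking protein of growth factor receptors, had 0.0628% and 0.0437% in the combination and 2.65% and 1.08% in Vehicle. Of marker genes of other cell types, 1 myeloid (Cebpe) and 1 stromal (Pdgfrb) end was measured and no lymphoid or erythroid one. Cebpe had 10.5% and 0% in Vehicle, 61.9% and 82.96% in AG120, 2.26% and 99.2% in AZA, and 74.9% and 5.42% in the combination. AG120 thus lay 67.2 points above Vehicle at Cebpe without overlap, while the replicates of AZA and of the combination were far apart (edgeR, 0 ends past the threshold). Pdgfrb ranged from 0% to 64.5% over the libraries. The part of other cells in the levels of the RAS-MAPK genes was not tested.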

How the data were processed

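CpG methylation was measured by RRBS in 8 libraries, 2 for each of 4 groups defined by the labelled treatment. Per the file headers, the deposited table holds the authors' counts of methylated and unmethylated reads per CpG cytosine and library, not normalized, at 4006353 positions, and 0 count columns were left unused. Bismark 0.22.3, Trim Galore 0.4.4 and the mm10 build were named, without roles, in the submitters' processing notes. Deduplication is not given in the sources used here. Promoter sequences were from RefSeq (GRCm38.p6), and 99.3% of 376147 table positions in promoters lay on a CG there.

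From these counts, reads were summed per gene end (Python 3.11.15, pandas 2.3.3). edgeR 4.0.16 (R 4.3.3) fitted all 8 libraries at once. The model had 1 term for each library's reads and 1 for each group's methylation. The quasi-likelihood F-test (robust, two-sided) was run on 15507 ends and adjusted over all of them by Benjamini-Hochberg, with a threshold of 0.05. The code was tested on simulated counts. Alternatives were DESeq2 1.42.0, limma 3.58.1 (log2 ratios, pseudocount 2), stricter minimums (100 reads, 10 positions), a window 500 bp outside, a replicate block and leaving out each library. A level is methylated reads as a percent of all reads of an end, and ± is the SD over libraries. Zeros have a limit of 3 counts of the reads.

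Full values are given for ends with a mean over 20%, the 3 smallest p of each pairwise comparison and each average drug effect, and genes measured at both ends. Ends with 1 high library, the lowest levels and non-overlapping ends were named after their values were seen. Members and lists were chosen with earlier results of these data known. Exon and intron annotation was not used here. Of the 44 ends, 13 shared a measured window with another gene.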

Additional observations from a re-analysis of the deposited data

How the results depend on the processing

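The count of 0 ends past edgeR's threshold held in all 8 tests under stricter minimums, the narrower window and the replicate block (0 in each). Replicate numbers gave correlations of deviations from -0.0142 to 0.00468 between groups, so no pairing of libraries by number was visible. With 2 libraries a group, these values cannot exclude a pairing. With DESeq2 the counts were 12 (AG120 against Vehicle), 2 (AZA against Vehicle), 144 (combination against Vehicle), 146 (against AZA), 254 (against AG120), 363 (AG120 average), 195 (AZA average) and 97 (interaction), and with limma 1 in the combination against AZA. The cause was not tested. Leaving out 1 library gave 0 to 1 for the AG120 average, the 1 without AG120 replicate 1. For median differences (percentage points) it gave -0.23 to 0.38 for AG120 against Vehicle, -0.30 to 0.13 for AZA against Vehicle, -0.595 to -0.0755 for the combination against Vehicle, -0.486 to -0.0169 against AZA and -1.02 to -0.0167 against AG120. With each shared position counted once, medians were -0.62 against Vehicle and 0 against AZA and AG120, over the ends with such positions (15 of 44 have none). Leaving out 1 library gave 2 to 3 ends over 20%. Levels under the limit that 3 counts allow are not detectable at this depth.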
